A study of Homo sapiens with 4 samples.

Results

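Kinesins are motor proteins that use ATP to move along microtubules or to take them apart. The mitotic members build the spindle, move chromosomes and complete cytokinesis, and most of them are made mainly by dividing cells. The transport members carry vesicles, organelles and mRNAs through the cytoplasm, and a further set works in cilia and at centrioles. The 42 kinesin genes with a KIF or KIFC symbol were selected by name from the 58735 gene identifiers measured. By known function 14 were classed as mitotic, 14 as transport, 7 as cilium and centriole kinesins and 7 as other.

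The cells were HCT116, an established human colorectal carcinoma line. They had been transfected 48 h earlier with small interfering RNA (siRNA), either a control siRNA (2 libraries) or siRNAs against KIF26B (2 libraries), and carried no other treatment. Poly(A) mRNA was sequenced, and the question put to the data was how gene expression differed after KIF26B knockdown. The study used a pair of siRNAs against KIF26B, and which of them each library received was not given in the sources used here. The deposited column names carry KD1 for replicate 1 and KD2 for replicate 2, so the replicates may have received different siRNAs. The study's methods speak of biological replicates for its experiments in general, but do not tie the 2 libraries of a group to separate cultures, so the P values may measure only the spread between these libraries, which may be technical. Values are listed throughout in the order control siRNA replicates 1 and 2, then KIF26B siRNA replicates 1 and 2.

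Levels are FPKM, fragments scaled to exon length and to the size of the library, and can be compared between genes. Differences were tested with limma on log2(FPKM + 1), and 14523 genes averaged 1 FPKM or more and entered the fit. With 2 libraries against 2, an exact permutation test (two-sided) of any value can reach no p smaller than 0.33. The whole reads recovered from the values summed to between 19616200 and 25424653 per library. In each library the sum was above the library size that scales its FPKM (from 18068934 to 24673739). Sums and shares of recovered reads are therefore approximate. The epithelial genes EPCAM, CDH1, KRT8, KRT18 and KRT19 were present in every library, whereas CDH17 and VIL1 stayed at or below 0.142 FPKM. KRT8 (484.9, 481.7, 368.5 and 350.1 FPKM) and KRT18 (244.7, 242.6, 174.9 and 167.5 FPKM) were lower in both KIF26B siRNA libraries at an unadjusted P below 0.05, CDH1 was at 24.1, 23.9, 17.7 and 20.2 FPKM without passing, and EPCAM and KRT19 had log2 fold changes of 0.08 and 0.14. The part of this difference in the kinesin results was not tested. Of the markers of other cell types, PTPRC had 8 reads in control replicate 1 and 0 in the other libraries, COL1A2 and the neuronal SNAP25 and SYN1 stayed at or below 0.247 FPKM, and COL1A1 lay between 4.74 and 8.69 FPKM. Mitochondrial genes held 6.67%, 6.68%, 9.37% and 7.53% of the recovered reads.

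KIF26B, the targeted gene, was the check of the labels. It belongs to the kinesin-11 family, whose motor domains lack the usual ATPase activity, and is known from kidney development and WNT5A-ROR signaling. In GRCh37 the gene (ENSG00000162849) spans chromosome 1 from 245318287 to 245872734, plus strand. Its level was 0.110, 0.205, 0.140 and 0.0307 FPKM, from 31, 73, 43 and 8 reads. KIF26B siRNA replicate 1 therefore lay between the control libraries, and KIF26B siRNA replicate 2 lay below both. Relative to the control mean, the levels were 0.887 and 0.195 in replicates 1 and 2. The gene was under 1 FPKM everywhere, so it was fitted with all genes above 0, where the log2 fold change was -0.09 (SE 0.09, adjusted p = 0.775). The pseudocount flattens so low a gene: on recovered reads, limma-voom gave a log2 fold change of -1.13, which did not pass at an unadjusted P below 0.05 either. The labels are thus met by KIF26B in only 1 of the 2 libraries, and every direction below compares the libraries labelled KIF26B siRNA with control.

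KIF26A is the other member of the kinesin-11 family and is known to restrain GDNF-RET signaling in enteric neurons. In GRCh37 the gene (ENSG00000066735) spans chromosome 14 from 104602791 to 104647231, plus strand. KIF26A was the more abundant paralog by a wide margin, with 5.69, 6.31, 5.22 and 5.08 FPKM from 755, 1052, 754 and 620 reads. Both KIF26B siRNA libraries lay below both controls. The log2 fold change was -0.19 (SE 0.12, adjusted p = 0.481 from limma), so the difference did not pass the test. Ranked by control level among the 42 kinesin genes, KIF26A was 20 and KIF26B 37. The ratio of KIF26A to KIF26B within a library was 51.9, 30.7, 37.4 and 165.2. It was highest in KIF26B siRNA replicate 2, and in replicate 1 it lay between the control libraries.

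Of the 42 kinesin genes, 33 averaged 1 FPKM or more and were tested. The 9 others, KIF2B, KIF4B, KIF1A, KIF6, KIF7, KIF17, KIF19, KIF25 and KIF26B, were below it or listed at 0. The median log2 fold change of the 33 tested was -0.27, against -0.01 over all genes tested. At an unadjusted P below 0.05, 13 of the 33 were lower in the libraries labelled KIF26B siRNA, where 8.68% of all genes tested were lower. At the same threshold 2 of the 33, KIF1C and KIF9, were higher, where 7.74% of all genes were. KIF9 averaged 0.815 FPKM in control and reached the mean of 1 FPKM only through the libraries where it was high, so KIF1C is the one gene of the 2 whose entry into the test did not depend on being higher. The other 18 passed in neither direction. After Benjamini-Hochberg adjustment over all genes limma called none of the 33 (adjusted p from 0.242 to 0.937), where 0% of all genes tested passed, and limma-voom called none either. The rule of the study's methods, P below 0.05 with a log2 fold change beyond 1, also called none of the 33 against 1.42% of all genes. By position alone, 21 of the 33 had both KIF26B siRNA libraries below both controls (27.8% of all genes) and 3 had both above (24.9% of all genes), and 9 overlapped. The count of lower genes rests on which libraries enter the fit. A fit without 1 library has a lone library in 1 group, which is assumed to vary as the other group did. None of the 13 lower genes passed without control replicate 1, nor without control replicate 2. More kinesin genes passed when 1 KIF26B siRNA library was left out. Over all genes tested, the number passing moved the same way. The median log2 fold change of the tested mitotic kinesins was -0.68 and -0.70 without control replicates 1 and 2. It was -0.51 and -0.93 without KIF26B siRNA replicates 1 and 2.

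The mitotic kinesins made up most of the lower genes. Of 14 mitotic members 12 were tested. At an unadjusted P below 0.05, 10 of these 12 were lower (8.68% of all genes) and none was higher (7.74% of all genes). None of the 12 passed in the fits without control replicate 1 or without control replicate 2. Their median log2 fold change was -0.69, with a range from -0.95 to -0.43, so all 12 lay below 0. Both KIF26B siRNA libraries lay below both controls for 11 of the 12 (27.8% of all genes), the exception being KIF2C. The libraries labelled KIF26B siRNA were not alike: the median level relative to the control mean was 0.499 in replicate 1 (range 0.395 to 0.633) and 0.680 in replicate 2 (range 0.634 to 1.04). All 12 had a lower level in replicate 1 than in replicate 2, where 52.7% of all genes tested did, as did 8 of the 21 other kinesins tested. Replicate 1, where the mitotic kinesins were lowest, was the library in which KIF26B itself lay between the controls. It was also the library with the highest mitochondrial share of reads, 9.37% against 7.53% in replicate 2 and 6.67% and 6.68% in control, and the part of that in the result was not tested. In bulk RNA, fewer dividing cells and less of these transcripts per cell cannot be told apart.

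Genes used in the G2 and M phases often carry a cell cycle genes homology region (CHR), bound by the MuvB protein complex, a short way downstream of CCAAT boxes, bound by NF-Y. Because the mitotic members were lower together, the promoters of all kinesin genes with a RefSeq entry (34 of 42, build GRCh38.p14, 250 bases before to 50 bases after the start) were searched on both strands. The CHR was searched as TTTGAA or TTCGAA, the NF-Y box as CCAAT and an E2F-like site as TTTGGCG or TTTCCCG. A CHR was found in 11 of 14 mitotic genes (78.6%), against 19.5% of all 27305 genes with a promoter entry. It was found in 1 of 10 transport, 1 of 5 cilium and centriole and 0 of 5 other kinesin genes. The 14 mitotic genes include KIF2B and KIF4B, whose levels were too low to be tested. KIF4B, a near copy of KIF4A, held a CHR and a CCAAT box like KIF4A and is not an independent case. Within the 100 bases before to 30 bases after the start, the CHR was in the same number of mitotic genes, 11 of 14, against 8.26% of all genes. A CCAAT box was in 11 of 14 mitotic genes (78.6%) against 39.7% of all genes, and in 4 of 10 transport, 2 of 5 cilium and centriole and 1 of 5 other genes. The E2F-like letters were in 2 of 14 mitotic genes (14.3%) against 7.30% of all genes, and in 1 of 10 transport and 1 of 5 other genes. The 8 windows below run from 100 bases before to 30 bases after the start, 5′ to 3′ on the gene's strand, with CHR and CCAAT boxes in capitals on whichever strand they lie (TTCAAA and ATTGG are their reverse complements). They show 5 called mitotic genes and the mitotic KIFC1 with both motifs, then KIF2C and KIF1C, which hold neither in the letters searched. KIF2C is a mitotic gene that overlapped control, and KIF1C is the transport gene that was higher.
KIF4A, chrX:70290004-70290133, plus strand: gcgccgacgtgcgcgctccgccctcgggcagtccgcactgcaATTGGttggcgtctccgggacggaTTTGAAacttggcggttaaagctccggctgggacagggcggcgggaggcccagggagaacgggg
KIF11, chr10:92593030-92593159, plus strand: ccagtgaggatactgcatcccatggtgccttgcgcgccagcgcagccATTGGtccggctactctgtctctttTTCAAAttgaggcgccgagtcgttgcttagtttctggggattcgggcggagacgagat
KIF14, chr1:200620722-200620851, minus strand: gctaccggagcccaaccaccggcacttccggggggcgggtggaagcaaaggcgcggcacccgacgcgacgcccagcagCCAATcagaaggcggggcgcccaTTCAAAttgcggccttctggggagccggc
KIF18B, chr17:44947744-44947873, minus strand: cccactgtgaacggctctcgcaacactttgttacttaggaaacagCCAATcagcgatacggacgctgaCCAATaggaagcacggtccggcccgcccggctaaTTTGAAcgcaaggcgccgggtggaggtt
KIF23, chr15:69414249-69414378, plus strand: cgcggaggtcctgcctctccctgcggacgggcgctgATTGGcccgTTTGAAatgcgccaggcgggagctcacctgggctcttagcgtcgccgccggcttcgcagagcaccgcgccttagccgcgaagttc
KIFC1, chr6:33391723-33391852, plus strand: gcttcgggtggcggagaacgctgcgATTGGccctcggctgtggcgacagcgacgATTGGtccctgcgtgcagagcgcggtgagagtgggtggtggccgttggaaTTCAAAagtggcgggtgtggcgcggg
KIF2C, chr1:44739737-44739866, plus strand: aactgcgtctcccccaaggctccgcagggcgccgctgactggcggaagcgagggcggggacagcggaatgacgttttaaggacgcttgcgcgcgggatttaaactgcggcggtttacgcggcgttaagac
KIF1C, chr17:4997850-4997979, plus strand: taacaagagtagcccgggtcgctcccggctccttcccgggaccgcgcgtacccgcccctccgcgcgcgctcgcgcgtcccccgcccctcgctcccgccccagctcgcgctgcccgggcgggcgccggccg
The match is a description of letters and not of a bound site. In KIF11 the CHR began 28 bases before the start and the CCAAT box 53 bases before it. In KIF23 these distances were 55 and 64 bases. KIF18B and KIFC1 each held 2 CCAAT boxes upstream of a CHR that began within the first bases after the start. Of the mitotic genes, KIF2B, KIF2C and KIF20A held neither CHR spelling searched, and KIF2B, KIF2C and KIF15 held no CCAAT box. Other CHR spellings were not searched. KIF20A was among the lower genes. Of the lower transport genes, KIF3A held neither motif and KIFC3 had no promoter entry. KIF5B was the 1 transport gene with a CHR, 140 bases before the start, and it held a CCAAT box 59 bases before it.

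**Figure D1:**
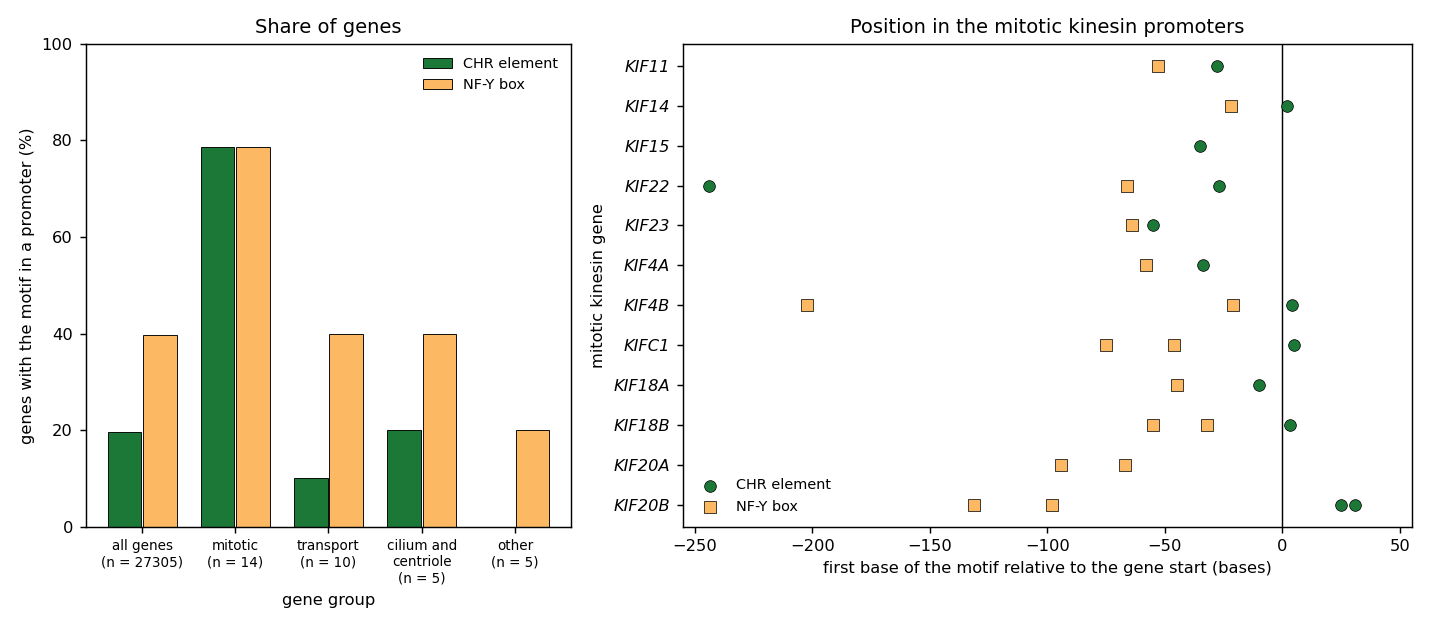
Left, percentage of genes with a CHR element or an NF-Y box in a promoter window, for all genes with an entry and for each kinesin group (n is the number of genes). Right, position of each match relative to the gene start in bases for the mitotic genes. The CHR elements of the mitotic genes begin between 55 bases before and 31 bases after the start, with KIF22 taken from its nearer start. From the second start of KIF22 the same CHR is marked again, 244 bases upstream.

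KIF11, KIF15 and KIFC1 act on the poles and length of the spindle. KIF11, the tetrameric Eg5 motor that makes the spindle bipolar, stood at 21.2, 21.7, 9.36 and 13.6 FPKM. Its log2 fold change was -0.87 (SE 0.21, adjusted p = 0.248), and its groups were well apart. KIF15, which can take over part of the work of KIF11, was at 5.71, 5.27, 2.65 and 4.12 FPKM. Its log2 fold change was -0.59 (SE 0.21, adjusted p = 0.30), and its KIF26B siRNA libraries were farther from each other than its controls. KIFC1, the minus-end motor HSET that focuses spindle poles and clusters extra centrosomes, was at 35.7, 34.7, 16.6 and 27.5 FPKM. Both KIF26B siRNA libraries were below control, yet their spread left the log2 fold change of -0.69 short of an unadjusted P below 0.05 (adjusted p = 0.319). Without strand information its reads could include the pseudogene RPL12P1, which shares 14.0% of its exon bases on the other strand.

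The kinesin-8 motors KIF18A and KIF18B control the plus ends of microtubules. KIF18A, which damps the movement of aligned chromosomes, was at 10.3, 10.6, 6.20 and 6.85 FPKM. Its KIF26B siRNA libraries were close together, and its log2 fold change was -0.61 (SE 0.12, adjusted p = 0.242). KIF18B, which acts on astral microtubules, was at 30.1, 31.4, 12.2 and 19.6 FPKM. With a log2 fold change of -0.95 (SE 0.25, adjusted p = 0.258) it differed most on this scale among the 33 KIF and KIFC genes tested. KIF2C, the microtubule depolymerase MCAK at centromeres, was at 32.8, 33.5, 17.2 and 34.6 FPKM. Only replicate 1 was low, and replicate 2 lay just above both controls. The log2 fold change of -0.43 (adjusted p = 0.593) became 0.06 without KIF26B siRNA replicate 1.

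The chromokinesins bind chromosome arms. KIF4A, which also works with PRC1 on the central spindle, was at 16.5, 16.5, 9.06 and 10.8 FPKM. The log2 fold change was -0.68 (SE 0.13, adjusted p = 0.242), with no overlap. KIF22, the motor Kid that pushes arms toward the spindle equator, was at 33.3, 34.3, 17.1 and 24.7 FPKM, a log2 fold change of -0.69 (SE 0.21, adjusted p = 0.274). KIF4B, a near copy of KIF4A without introns, had 5, 5, 2 and 2 reads and was not tested. Its few reads are uncertain because KIF4A reads may be assigned to it. KIF2B, a relative of KIF2C, was listed at 0 in every library.

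The motors of the central spindle and midbody followed the same order of libraries. KIF23, the MKLP1 subunit of centralspindlin, was at 22.5, 22.3, 11 and 14.9 FPKM (log2 fold change -0.76, adjusted p = 0.248). KIF20A, or MKLP2, which brings the chromosomal passenger complex to the central spindle, was at 29.8, 27.3, 14.5 and 19.0 FPKM (log2 fold change -0.75, adjusted p = 0.248). KIF20B, needed late in cytokinesis, was at 8.77, 9.51, 5.78 and 6.34 FPKM (log2 fold change -0.52, adjusted p = 0.248). KIF14, which recruits citron kinase to the midbody, was at 12.3, 11.7, 5.74 and 8.37 FPKM (log2 fold change -0.71, adjusted p = 0.269). In all of these no KIF26B siRNA library reached a control, and replicate 1 was the lower. The adjusted p from limma was between 0.242 and 0.30 for the 10 mitotic genes called.

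The transport kinesins were spread to both sides of control. Of 14 members 13 were tested, with a median log2 fold change of -0.17 and a range from -0.63 to 0.93. At an unadjusted P below 0.05, KIF3A, KIF5B and KIFC3 were lower (8.68% of all genes) and KIF1C was higher (7.74% of all genes). The other 9 passed in neither direction. The groups did not overlap for 7 of the 13, 5 with both KIF26B siRNA libraries lower (27.8% of all genes) and 2 with both higher (24.9% of all genes), a share close to that of all genes. The medians of both KIF26B siRNA libraries were alike, -0.26 and -0.25 against the control mean on the log2 scale. The mitotic medians were -0.93 and -0.51. The difference between the mitotic and transport medians was -0.52 with all libraries and lay between -0.68 and -0.26 when 1 library was left out.

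Within each library the mitotic kinesins were set against the transport kinesins, which cancels any scaling of the library. The summed level of mitotic members was 259.3, 258.8, 127.4 and 190.4 FPKM, and that of transport members 155.0, 154.9, 143.7 and 155.4 FPKM. Their ratio was 1.67, 1.67, 0.886 and 1.22. The control libraries were equal to the digits given, and both KIF26B siRNA libraries were lower, with an exact two-sided permutation p of 0.33, the smallest this design allows. Mitotic members made up 57.8%, 57.4%, 41.9% and 50.4% of all kinesin FPKM. The transport sum of KIF26B siRNA replicate 2 hides opposite shifts of single genes. KIFC2 was at 51.2 FPKM there, against 25.3 and 25.2 FPKM in control and 21.7 FPKM in replicate 1. KIF5B was at 34.8 FPKM there, against 59.4 and 59.8 FPKM in control. The ratio and the share in replicate 2 therefore depend in part on KIFC2, and values without it were not computed.

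Kinesin-1 is the main motor for transport toward microtubule plus ends. Its widely expressed heavy chain KIF5B was the most abundant kinesin, at 59.4, 59.8, 41.7 and 34.8 FPKM. Its log2 fold change was -0.63 (SE 0.14, adjusted p = 0.243), and here replicate 2 was the lower. The mainly neuronal KIF5A was at 4.04, 3.82, 2.83 and 3.91 FPKM and KIF5C at 2.75, 2.39, 1.80 and 2.60 FPKM. Both overlapped control (adjusted p = 0.614 and 0.662).

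The kinesin-3 motors carry vesicles, organelles and endosomes. KIF1C, which moves dense-core vesicles and integrins and carries mRNAs to cell protrusions, was at 12.4, 11.8, 26.4 and 21.7 FPKM. Both KIF26B siRNA libraries were far above both controls. Its log2 fold change of 0.93 (SE 0.15, adjusted p = 0.242 from limma) was the most positive of the kinesins tested and came with the smallest P. KIF1C also passed at an unadjusted P below 0.05 in the fits that left out any 1 library. The ratio of KIF1C to KIF5B was 0.208, 0.198, 0.633 and 0.623, so the share of transport FPKM held by KIF1C went from 7.97% and 7.63% to 18.4% and 14.0% and that of KIF5B from 38.3% and 38.6% to 29.0% and 22.4%. KIF1B, which carries mitochondria and synaptic vesicle precursors, was at 7.98, 8.34, 8.39 and 9.82 FPKM (adjusted p = 0.63). The endosome motors KIF13A, KIF13B and KIF16B had log2 fold changes of -0.16, -0.09 and -0.27, and none passed. KIF1A, a motor of neurons, had 21, 55, 21 and 7 reads and was not tested.

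Kinesin-2 combines KIF3A with KIF3B or KIF3C and works in intraflagellar transport as well as in the cytoplasm. KIF3A was at 8.02, 8.34, 5.07 and 4.95 FPKM. Its KIF26B siRNA libraries were nearly equal and below control, with a log2 fold change of -0.61 (SE 0.11, adjusted p = 0.242). Its partner KIF3B was at 13.2, 12.7, 16.6 and 9.22 FPKM, above both controls in replicate 1 and below both in replicate 2. The log2 fold change of KIF3B was -0.05 (SE 0.30, adjusted p = 0.937) and became 0.34 without KIF26B siRNA replicate 2. The ratio of KIF3A to KIF3B was 0.608, 0.657, 0.305 and 0.537. KIF3C was at 4.05, 3.96, 3.07 and 3.22 FPKM, with no overlap but adjusted p = 0.327.

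KIFC3, a minus-end motor linked to the Golgi and to adherens junctions, was at 6.98, 7.15, 5.57 and 5.38 FPKM. The log2 fold change was -0.32 (SE 0.11, adjusted p = 0.295). KIFC2, a minus-end motor studied mostly in neurons, was at 25.3, 25.2, 21.7 and 51.2 FPKM. Replicate 2 was far above control and replicate 1 below it, so the log2 fold change of 0.39 (SE 0.44, adjusted p = 0.683) became -0.21 without KIF26B siRNA replicate 2. FOXH1 on the other strand shares 17.8% of its exon bases. Without control replicate 1, KIF3A, KIF5B and KIFC3 no longer passed at an unadjusted P below 0.05, and the same held without control replicate 2.

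Most cilium and centriole kinesins were barely expressed in HCT116. KIF9, a motor of motile cilia, was at 0.688, 0.942, 2.78 and 1.44 FPKM. Both KIF26B siRNA libraries were above both controls, with a log2 fold change of 0.75 (SE 0.26, adjusted p = 0.297). Because its control mean was under 1 FPKM, KIF9 entered the test through the KIF26B siRNA libraries. It was not tested when 1 FPKM was required in every library, and without a filter it did not pass at an unadjusted P below 0.05. KIF9-AS1 and KLHL18 share 17.8% of its exon bases on the other strand, so its reads may not all be its own. KIF9 did not pass without control replicate 1, nor without control replicate 2. KIF24, which acts with CP110 at mother centrioles, was at 2.47, 2.49, 1.99 and 1.66 FPKM (adjusted p = 0.329). Of the 5 genes of this group with a promoter entry, KIF24 alone held a CHR as searched. KIF27, a relative of KIF7, was at 1.41, 1.41, 1.04 and 1.40 FPKM (adjusted p = 0.678). KIF7, a ciliary regulator of Hedgehog signaling, was under the filter at 0.917, 0.835, 0.487 and 0.454 FPKM. In the fit with all genes above 0, its log2 fold change was -0.35 (SE 0.07, adjusted p = 0.271), and TICRR shares 10.8% of its exon bases on the other strand. KIF17, a motor of cilia and dendrites, had 75, 84, 113 and 76 reads. KIF19, which limits the length of motile cilia, had 28, 43, 23 and 5 reads, and KIF6 had 0, 0, 3 and 1 read.

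None of the 5 tested kinesins of the remaining group passed. KIF2A, a depolymerase of spindle poles and neurons, was at 10.9, 11.7, 9.57 and 8.88 FPKM, with no overlap and adjusted p = 0.36. Counting KIF2A with the mitotic kinesins left the difference between the mitotic and transport medians at -0.52. DIMT1 shares 18.7% of its exon bases on the other strand. KIF21A, which pauses microtubule growth at the cell cortex, was at 4.78, 5.41, 5.15 and 4.32 FPKM (adjusted p = 0.775), and its relative KIF21B was at 2.37, 2.22, 1.86 and 2.02 FPKM (adjusted p = 0.511). KIF12, a kinesin of kidney and liver epithelia, was at 3.74, 4.25, 3.01 and 5.91 FPKM (adjusted p = 0.912), low in replicate 1 and high in replicate 2. KIF25 had 1 read in all, in KIF26B siRNA replicate 1. The median log2 fold change of the 21 tested kinesins that are not mitotic was -0.17.

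Proteins that kinesins work with were listed as well, 25 light chains, adaptors and mitotic partners, of which 24 were tested. Of these, 9 were lower and none higher at an unadjusted P below 0.05 (8.68% and 7.74% of all genes), with a median log2 fold change of -0.47. The genes called were mostly mitotic partners. Those with a log2 fold change above 0 numbered 5, and all 5 were light chains or adaptors. Fewer of the 24 passed when 1 control library was left out, and more when 1 KIF26B siRNA library was, as over all genes tested. The 4 with the smallest P follow. ECT2, which binds centralspindlin during cytokinesis, was at 30.9, 29.5, 13.0 and 17.4 FPKM (log2 fold change -0.96, adjusted p = 0.242). AURKA, the spindle pole kinase, was at 26.7, 25.5, 12.9 and 16.2 FPKM (log2 fold change -0.81, adjusted p = 0.242). CENPE, the kinetochore kinesin known by another symbol, was at 7.74, 8.20, 2.81 and 4.46 FPKM (log2 fold change -0.98, adjusted p = 0.243). KLC3, a light chain of kinesin-1, was at 12.1, 12.4, 8.12 and 8.32 FPKM (log2 fold change -0.52, adjusted p = 0.242). Each of the 4 had both KIF26B siRNA libraries below both controls.

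General cell cycle genes were listed for comparison. Of 20, 11 were lower and none higher at an unadjusted P below 0.05 (8.68% and 7.74% of all genes), 9 did not pass, and all 20 log2 fold changes were below 0, with a median of -0.52. Fewer of the 20 passed when 1 control library was left out, and more when 1 KIF26B siRNA library was, as over all genes tested. Those that did not pass include CCNB2 and RRM2, chosen after their values were seen, whose groups overlapped (log2 fold changes -0.22 and -0.15). The summed level of all 20 genes was 760.8, 758.0, 475.3 and 575.6 FPKM, lowest in KIF26B siRNA replicate 1 as for the mitotic kinesins. MKI67, the proliferation antigen, was at 59.2, 58.6, 27.1 and 31.4 FPKM (log2 fold change -0.99, adjusted p = 0.242). PLK1, the mitotic kinase, was at 28.3, 30, 16.4 and 15.8 FPKM (log2 fold change -0.82, adjusted p = 0.242). MYBL2 and FOXM1, transcription factors of the G2 program, had log2 fold changes of -0.71 (adjusted p = 0.242) and -0.68 (adjusted p = 0.242). The part of these genes in the levels of the mitotic kinesins was not tested.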

How the data were processed

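RNA of HCT116 cells was sequenced in 4 libraries, 2 control siRNA and 2 KIF26B siRNA, grouped by their titles. Per the study's methods, poly(A) mRNA was prepared with a NEBNext Ultra kit, sequenced as paired ends and aligned with HISAT2 to hg19, and groups were compared by calling genes with a log2 fold change beyond 1 and P below 0.05. The submitters' processing notes name HISAT2 2.0.5, featureCounts 1.5.0-p3 and hg38, so the build is not settled. Whether counting used strand was not given in the sources used here. The values the authors deposited are FPKM, 1 per gene and library. The unit was read from the values: for genes with 1 exon, 91.7% to 92.1% of values times exon length were whole multiples of 1 step. Whole reads were recovered from such steps for 97.5% of the 34638 genes above 0, in this work and not by the authors. For genes with many reads they may be off by a whole multiple, so reads are printed only for low genes and for KIF26A and KIF26B.

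Of 58735 identifiers, 56513 had a symbol in GENCODE v44 for GRCh37, whose coordinates are printed for genes. Promoters are RefSeq windows on GRCh38.p14, and a gene with several starts counted once. The 14523 genes averaging 1 FPKM or more were fitted with limma on log2(FPKM + 1), without covariates, with empirical Bayes moderation (2 residual and 2.00 prior degrees of freedom) and Benjamini-Hochberg adjustment over all genes. The log2 fold changes are on the log2(FPKM + 1) scale, which understates differences of low genes. Members below the filter were read from the fit of all 34638 genes above 0. The members and gene lists were chosen with earlier results of these data known. Genes named are KIF26B, KIF26A, members at P below 0.05, the 3 most abundant members of each group and at most 4 partner and cell cycle genes by smallest P; the other kinesins are named to account for every member. Of the marker genes PECAM1 was not matched. The fit was tested on simulated data. Alternatives were the replicate block, other filters, a pseudocount of 0.1, median-of-ratios scaling, a variance trend, limma-voom on recovered reads, the call rule of the methods and leaving out each library. Python 3.11.15, numpy 2.4.6, pandas 2.3.3, matplotlib 3.10.9, R 4.3.3 and limma 3.58.1 were used.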

Additional observations from a re-analysis of the deposited data

How the results depend on the processing

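With all 4 libraries, the medians of the mitotic kinesins and their difference from the transport kinesins kept their direction under each setting run, and 12 to 17 kinesin genes were lower. The 17 came from the fit without a filter, where KIF7 passed from below the filter. Genes tested before, among them KIF24 and KIF2A, also passed there without having passed in the main fit, while KIF15 no longer did. Under the cutoffs of the methods, with a log2 fold change beyond 1, 0 kinesin genes were lower and 0 higher in the main fit. KIF9 met these cutoffs with a pseudocount of 0.1 (log2 fold change 1.22) and with limma-voom (1.32). The count of higher kinesin genes was 1 in place of 2 without a filter, with at least 1 FPKM in every library and with a variance trend. The transport median, -0.17 in the report, was -0.24 with a pseudocount of 0.1, -0.16 with median-of-ratios scaling and -0.25 with limma-voom. When 1 library was left out, the count of lower kinesin genes ranged from 0 to 22, of higher ones from 1 to 5, of partner genes from 2 to 16, of cell cycle genes from 2 to 19 (settings for this list were added after seeing the data), of kinesin genes with an adjusted p below 0.05 from 0 to 9, and the transport median from -0.26 to -0.15. These fits have a lone library in 1 group, which is assumed to vary like the other group. Direction depended on the KIF26B siRNA library left out for KIF2C (0.06 without replicate 1, -0.91 without replicate 2), KIFC2 (0.99 and -0.21 in the same order), KIF3B (-0.45 and 0.34) and KIF21A (-0.19 and 0.02). The causes were not tested, beyond the smaller number of libraries. The replicate numbers did not pair the samples: deviations of same-numbered libraries correlated at -0.003 over the 14523 genes. With the replicate block, 12 kinesin genes were lower and 2 higher, with KIFC1 passing in place of KIF15 and KIFC3, KIF26A had a log2 fold change of -0.19, and the smallest adjusted p among the kinesins was 0.391. The few reads of KIF26B, KIF1A, KIF4B, KIF6, KIF19 and KIF25 limit the precision of their values.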
